A study of Mus musculus with 24 samples.

Results

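The 10 genes described here encode chaperones and regulators of the unfolded protein response (UPR): Hspa5, Hsp90b1, Xbp1, Dnajb9, Herpud1, Pdia4, Sdf2l1, Calr, Creld2 and Hyou1. They were chosen by name and found in a table of 24454 genes through their Entrez identifiers, and all 10 were among the 16317 genes with enough counts to be tested. RNA had been sequenced from organ of Corti (OC) explants, the sensory epithelium of the cochlea with its surrounding tissue, taken at postnatal day 5 (P5) from male and female C57BL/6N mice. After a day in culture the explants were kept for 6 or 24 h in medium without drugs (CTRL), with 50 μM of the ototoxic antibiotic gentamicin (GM), with 10 μM of the PPAR-γ agonist pioglitazone (PIO), or with both (PIO+GM). Each of the 8 groups had 3 libraries, and each library pooled 6 explants. The labels do not say whether the libraries of a group came from separate litters, so p-values measure the spread between these pools. An explant mixes hair cells, supporting cells, fibroblasts, neurons and glia, and fewer cells of a type and less RNA per cell cannot be told apart in it. Of 12 hair cell marker genes, all were detected at both times, with a summed level of 176 to 492 CPM (counts scaled to library size) across libraries.

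The UPR raises the folding capacity of the endoplasmic reticulum (ER) when unfolded proteins accumulate there. Its sensors are IRE1, which splices the mRNA of Xbp1 into that of an active transcription factor, ATF6, which is cut to release another, and PERK, which slows translation and favors the synthesis of ATF4. ATF6 and the spliced form of XBP1 act through ER stress response elements, short promoter motifs that include a CCAAT box and the letters CCACG.

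These elements were looked for in the promoters of the 10 genes, because they are the sequence feature through which the genes are known to be controlled together. The windows came from RefSeq (build GRCm38.p6) and ran from 250 bases before to 50 bases after the start site. A window was given for 9 of the 10 genes, all but Hyou1. The element ERSE (CCAAT and CCACG separated by 9 bases, either strand) was found in the windows of Hspa5, Hsp90b1, Calr and Creld2, and ERSE-II (ATTGG and CCACG separated by 1 base, either strand) in that of Herpud1. Among all 32851 windows, 0.119% held an ERSE and 0.037% an ERSE-II. The stretches below are those with a match and 40 bases on each side where the window before the start site allows; they are shown 5′ to 3′ on the strand of the gene, with the CCAAT and CCACG letters, or their reverse complements, in capitals.
Hspa5: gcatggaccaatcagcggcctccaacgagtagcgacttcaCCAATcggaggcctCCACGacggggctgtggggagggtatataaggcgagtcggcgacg
Hsp90b1: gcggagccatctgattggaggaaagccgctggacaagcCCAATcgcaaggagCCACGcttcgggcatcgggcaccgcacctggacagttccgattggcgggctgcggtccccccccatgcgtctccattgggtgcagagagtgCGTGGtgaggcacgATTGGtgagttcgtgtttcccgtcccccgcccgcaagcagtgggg
Herpud1: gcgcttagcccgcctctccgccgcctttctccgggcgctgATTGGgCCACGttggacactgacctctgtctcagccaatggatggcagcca
Calr: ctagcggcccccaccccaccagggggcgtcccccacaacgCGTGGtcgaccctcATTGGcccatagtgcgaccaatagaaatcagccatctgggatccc
Creld2: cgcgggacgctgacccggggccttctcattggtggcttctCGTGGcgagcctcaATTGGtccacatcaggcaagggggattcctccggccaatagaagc
The stretches lie at chr2:34771985-34772083 on the plus strand, chr10:86705493-86705694 on the minus strand, chr8:94386337-94386427 on the plus strand, chr8:84847035-84847133 on the minus strand and chr15:88819480-88819578 on the plus strand. All lie upstream of the annotated start sites. The match in Hspa5 ran from position -65 to -47 relative to the start site. Hsp90b1 held 2 matches, at -212 to -194 and at -107 to -89, and those of Herpud1, Calr and Creld2 lay at -52 to -42, -162 to -144 and -126 to -108. No window of the 9 genes held the UPRE core TGACGTGG (0.676% of all windows; it contains the reverse complement of CCACG), the cyclic AMP element TGACGTCA (1.79%), or the C/EBP-ATF forms TGATGCAAT and TGATGAAAT (0.423%), each searched on both strands. No exact match in a window of this length says nothing of elements elsewhere or of looser forms.

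Library totals ran from 7211357 to 15548856 counts with a median of 12538495, so that 3 counts corresponded to 0.193 to 0.416 CPM; every count of the 10 genes was at least 78. At least 3 libraries stood apart for these genes. CTRL 24 h replicate 1 had the highest level of the 12 libraries at 24 h for 9 of the 10 genes, and the highest summed levels of other ER chaperones (6252 CPM) and of supporting cell markers (7010 CPM). PIO+GM 6 h replicate 3 was the library with the lowest total and had the lowest level at 6 h for Xbp1 and Herpud1. GM 6 h replicate 2 had the lowest level at 6 h for 5 of the 10 genes, and 580 CPM of Hspa5 beside 884 and 1101 CPM in the other libraries of its group. Some values below are given without these libraries as well.

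Per base of counted exon, Hsp90b1, Calr and Hspa5 were the most abundant of the 10 genes. Their mean levels over the 24 libraries were 351, 346 and 343 CPM per kilobase of counted exon (RPKM), which placed each above 99.6% of the genes tested. Hsp90b1 (GRP94) is the HSP90 of the ER lumen, Calr (calreticulin) a lectin that holds newly made glycoproteins, and Hspa5 (BiP) the HSP70 of the ER and the chaperone that keeps the UPR sensors inactive. Pdia4, a disulfide isomerase, followed with 156 RPKM, Hyou1, a large HSP70-like protein that exchanges the nucleotide of BiP, with 64.3 RPKM, and Xbp1 with 52.3 RPKM. Herpud1, a membrane protein of ER-associated degradation, stood at 45.9 RPKM and Creld2, a lumenal protein with thioredoxin-like motifs, at 30.4 RPKM. The lowest means were those of Dnajb9 (ERdj4), a J-domain partner of BiP, with 24.3 RPKM and Sdf2l1, a component of BiP complexes, with 15.5 RPKM. Their order changed with time, since Dnajb9 was above Sdf2l1 in 12 of 12 libraries at 6 h and in 4 of 12 at 24 h, and above Creld2 in 7 of 12 at 6 h and 0 of 12 at 24 h. In each library Pdia4 lay below the leading 3 genes and above Hyou1, while the order among the leading 3 differed with time, as described further on. The neighbors Hyou1 and Xbp1 overlapped, Xbp1 being above Hyou1 per base in 1 of 12 libraries at 6 h and in 4 of 12 at 24 h, as did Xbp1 and Herpud1 at 6 h, where Xbp1 was the higher in 5 of 12 libraries.

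**Figure D1:**
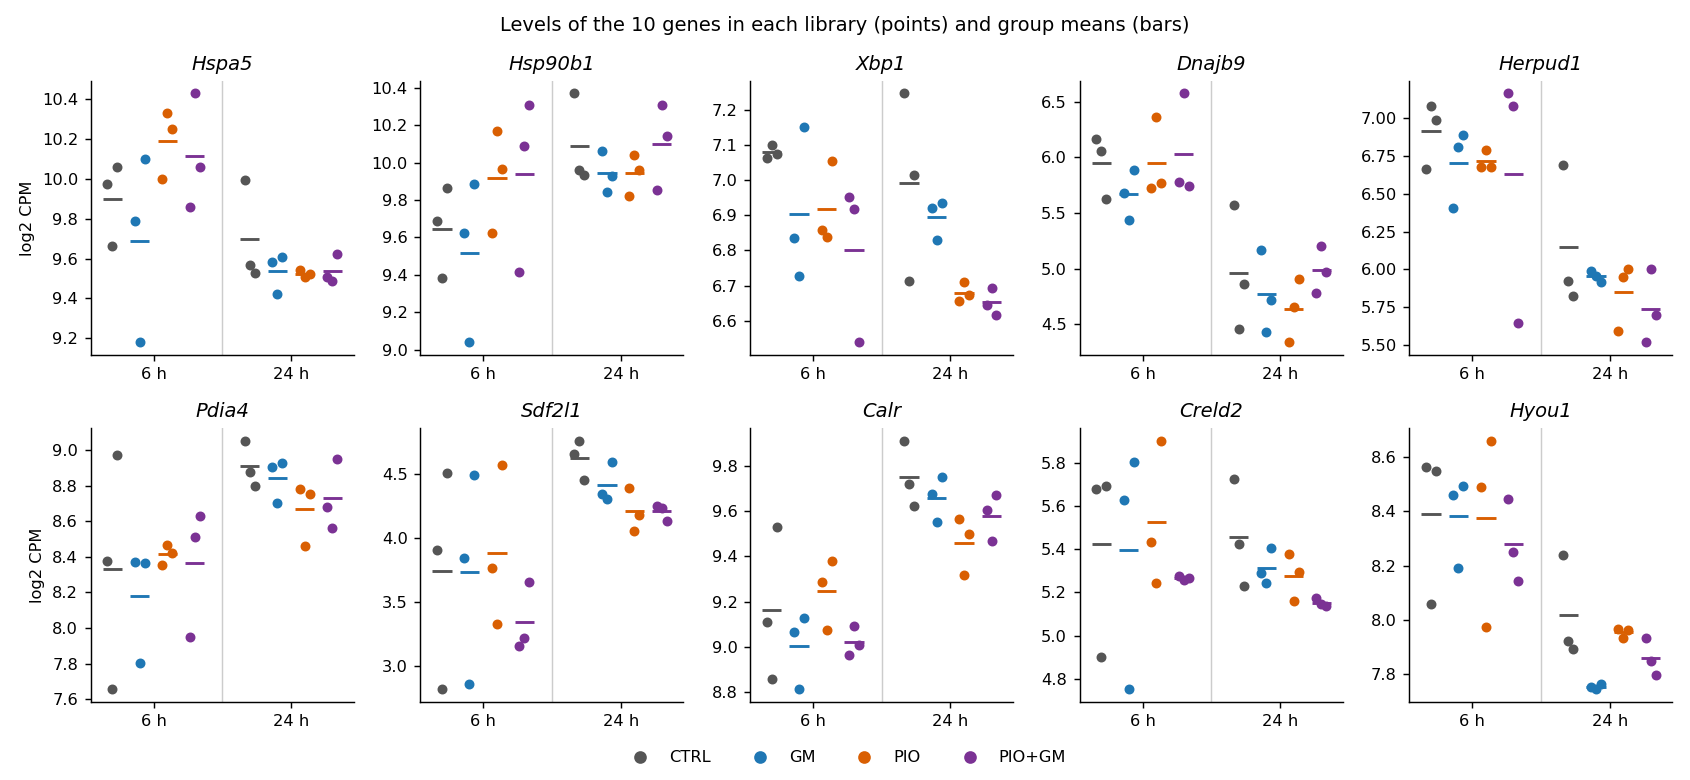
Level of each of the 10 genes (log2 CPM, separate vertical scale for each gene) in the 24 libraries, by time and treatment; points are libraries and bars the means of 3. Dnajb9, Herpud1, Hyou1 and Hspa5 lie lower at 24 h and Calr, Pdia4 and Sdf2l1 higher, and CTRL 24 h replicate 1 is the top point at 24 h in 9 panels.

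The 10 genes did not change together between 6 and 24 h of treatment: 4 fell, 3 rose and 3 did not pass the test. Averaged over the 4 treatments, Dnajb9, Herpud1, Hyou1 and Hspa5 were lower at 24 h, and Sdf2l1, Calr and Pdia4 were higher. The test was edgeR's quasi-likelihood test on all 24 libraries, with Benjamini-Hochberg adjustment over the 16317 genes and a threshold of 0.05. Time went with broad change, since 62.6% of all genes passed in this comparison, 31.9% upward and 30.7% downward, so that 7 of 10 is near the background. The median log2 fold change was -0.13 for the 10 genes and 0.02 for all genes. The 6 and 24 h libraries differ in anything that differed between the collections, and this cannot be told apart from time.

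Dnajb9 fell most. Its level in the 12 libraries at 6 h was 43.1 CPM at the lowest, 54.6 at the median and 95.03 at the highest, against 20.1, 28.2 and 47.5 CPM at 24 h. Of the 24 h libraries, 11 lay below the lowest at 6 h, the exception being CTRL 24 h replicate 1. Its log2 fold change was -1.06 (SE 0.14, edgeR adjusted p = 2.68e-06), which makes its level at 24 h 0.480 of that at 6 h. It passed in CTRL, GM, PIO and PIO+GM alike, with log2 fold changes of -0.93, -0.88, -1.34 and -1.09, and within each treatment the libraries of the 2 times did not overlap.

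Herpud1 fell by 0.84 on the log2 scale (SE 0.14, edgeR adjusted p = 3.39e-05), from 50.0, 111 and 143 CPM (lowest, median and highest of the 12 libraries) at 6 h to 45.7, 61.1 and 103 CPM at 24 h. The ranges overlapped through PIO+GM 6 h replicate 3 with 50.0 CPM, where the other 11 libraries at 6 h held at least 84.7 CPM, and through CTRL 24 h replicate 1 with 103 CPM. Without PIO+GM 6 h replicate 3 the averaged log2 fold change was -0.93.

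Hyou1 fell by 0.47 (SE 0.08, edgeR adjusted p = 3.06e-05). Its lowest, median and highest levels were 251, 351 and 405 CPM at 6 h and 214, 240 and 302 CPM at 24 h, and again 11 of the 12 libraries at 24 h lay below the lowest at 6 h. In GM at 24 h its 3 libraries were within 214 to 217 CPM. Hspa5 fell by 0.42 (SE 0.09, edgeR adjusted p = 7.44e-04), from 580, 1047 and 1383 CPM at 6 h to 686, 741 and 1019 CPM at 24 h. The ranges of Hspa5 overlapped, with GM 6 h replicate 2 at 580 CPM below every library at 24 h. Within treatments Hspa5 passed in PIO, with -0.68, and in PIO+GM, with -0.60, but not in CTRL or GM, with -0.20 in each; the test of that difference, the interaction of pioglitazone with time, gave -0.44 (SE 0.19, edgeR adjusted p = 0.48) and did not pass.

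Among the genes that rose, Calr had the smallest error, with a log2 fold change of 0.50 (SE 0.07, edgeR adjusted p = 6.08e-06). It stood at 450, 542 and 738 CPM (lowest, median and highest) at 6 h and at 638, 783 and 963 CPM at 24 h, and 9 of the 12 libraries at 24 h were above the highest at 6 h. Calr passed in CTRL, GM and PIO+GM, with 0.56, 0.65 and 0.56, and had 0.21 in PIO, where it did not pass. Pdia4 rose by 0.43 (SE 0.12, edgeR adjusted p = 0.0034), from 201, 331 and 502 CPM to 353, 443 and 532 CPM. Sdf2l1 rose by 0.59 (SE 0.18, edgeR adjusted p = 0.0085), from 6.88, 12.9 and 23.6 CPM to 16.5, 19.9 and 27.02 CPM. For both genes the 6 h libraries were spread widely, and 3 libraries at 24 h for Sdf2l1 and 1 for Pdia4 lay above the highest at 6 h. By the test described above neither passed within a treatment taken alone. With the replicate number fitted as a block, Sdf2l1 passed in CTRL and in PIO+GM, and Pdia4 in GM. Without the 8 libraries numbered 1 neither passed on average (0.37 with edgeR adjusted p = 0.083 for Pdia4, 0.52 with 0.15 for Sdf2l1), and without the 8 numbered 2 Sdf2l1 had 0.36 (edgeR adjusted p = 0.068).

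The other 3 genes did not pass. Hsp90b1 had a log2 fold change of 0.24 (95% interval 0.01 to 0.47, edgeR adjusted p = 0.064), Xbp1 -0.12 (-0.26 to 0.01, edgeR adjusted p = 0.10) and Creld2 -0.13 (-0.37 to 0.10, edgeR adjusted p = 0.31). All 3 passed after a trend of the counts on GC content was removed from each library, with 0.36, -0.24 and -0.29. Hsp90b1 also passed when any of 5 libraries was left out, PIO 6 h replicate 2, CTRL 6 h replicate 3, GM 6 h replicate 3, PIO+GM 6 h replicate 3 or PIO+GM 24 h replicate 1, with 0.28 to 0.30, and Xbp1 without PIO+GM 6 h replicate 3 or CTRL 24 h replicate 1, with -0.15 and -0.16. Creld2 passed without the 8 libraries numbered 2, with -0.27, and Hsp90b1 without the 8 numbered 3, with 0.38. Hsp90b1 further passed with no filter on low counts (0.27), and Xbp1 with DESeq2 size factors (-0.15) and with DESeq2's Wald test (-0.15). In this comparison the log2 fold changes of all genes had a Spearman correlation of 0.21 with GC content. The counts of Xbp1 sum its spliced and unspliced forms and say nothing of the share spliced.

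Taken within each treatment, where fewer libraries are compared, edgeR called 2 of the 10 genes in CTRL (28% of all genes), 3 in GM (24.2%), 4 in PIO (29%) and 5 in PIO+GM (34.6%). The genes called downward were Dnajb9 in all 4 treatments, Hyou1 in GM, PIO and PIO+GM, and Herpud1 and Hspa5 in PIO and PIO+GM; Calr was the gene called upward, in all but PIO. No gene of the 10 was called in opposite directions in any pair of treatments. Of these 14 calls, 10 were lost when some library of the comparison was left out. The 4 that held were Calr in GM and PIO+GM, Hyou1 in GM and Dnajb9 in PIO. Without PIO+GM 6 h replicate 2 all 4 downward calls in PIO+GM were lost, with -0.76 for Dnajb9, -0.84 for Herpud1, -0.42 for Hspa5 and -0.44 for Hyou1, and without CTRL 6 h replicate 2 both calls in CTRL, with -0.89 for Dnajb9 and 0.42 for Calr. Calls were gained too: in CTRL for Herpud1 (-1.04) and Hyou1 (-0.50) without CTRL 24 h replicate 1, for Hyou1 (-0.53) without CTRL 6 h replicate 2, and for Pdia4 (0.86) and Sdf2l1 (1.18) without CTRL 6 h replicate 3, and in GM for Herpud1 (-0.89) without GM 6 h replicate 1.

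**Figure D2:**
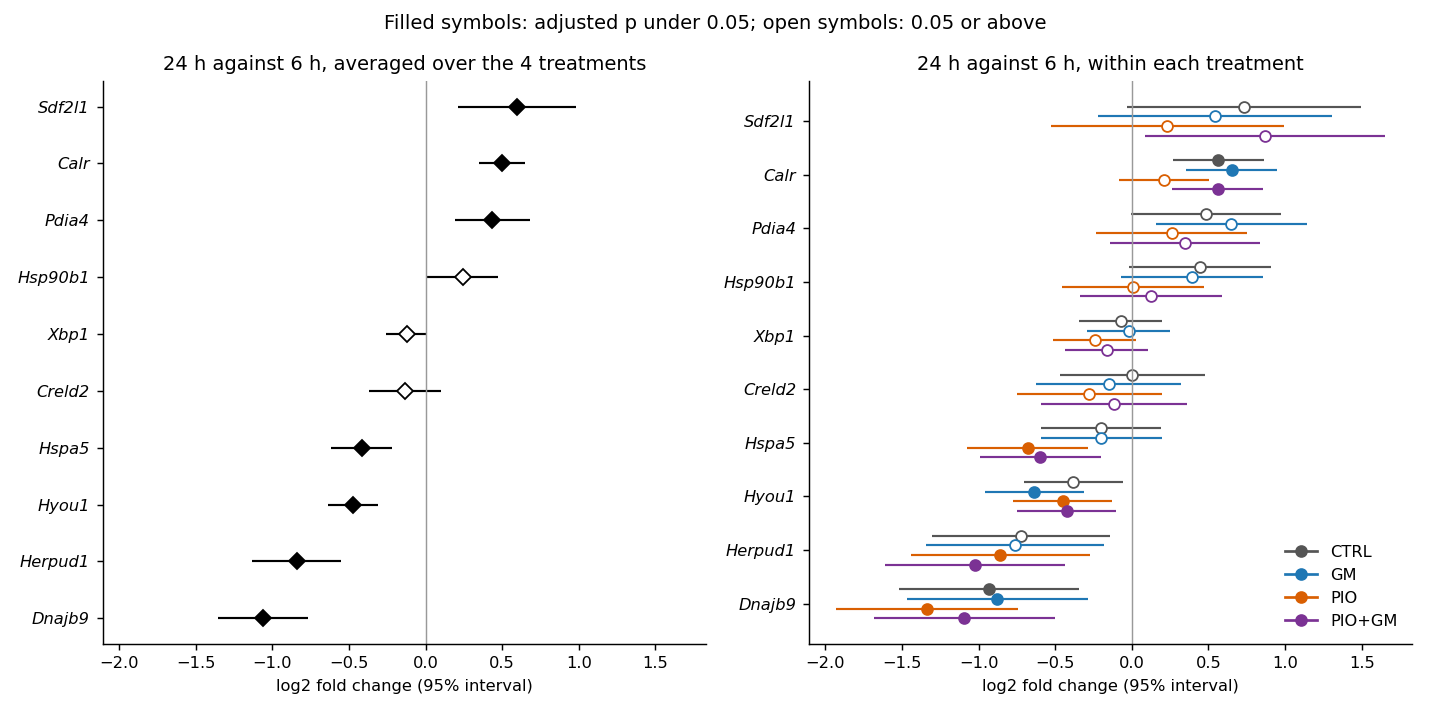
Log2 fold change from 6 to 24 h with its 95% interval for the 10 genes, averaged over the treatments (left) and within each treatment (right); filled symbols have an adjusted p under 0.05. Averaged values run from -1.06 for Dnajb9 to 0.59 for Sdf2l1, and the 4 treatments lie on the same side of 0 for 9 of the 10 genes. Creld2, the exception, is at 0.00 in CTRL. Hsp90b1, counted among the 9, is at 0.006 in PIO.

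Ratios within a library need no scaling between libraries and showed the divergence directly. Per base, Hspa5 was above Hsp90b1 in 11 of 12 libraries at 6 h and in 0 of 12 at 24 h. The ratio of Hspa5 to Hsp90b1 was 0.886, 1.26 and 1.44 (lowest, median and highest) at 6 h and 0.596, 0.791 and 0.867 at 24 h, so that the ranges did not overlap. The lowest value at 6 h belonged to PIO+GM 6 h replicate 3, and the next was 1.162. Hspa5 was likewise above Calr in 11 of 12 libraries at 6 h and in 0 of 12 at 24 h. The ratio of Dnajb9 to Calr was 0.0697, 0.110 and 0.182 at 6 h and 0.0272, 0.0392 and 0.0544 at 24 h, and that of Calr to Hyou1 was 3.27, 3.86 and 4.89 at 6 h and 5.96, 7.42 and 9.05 at 24 h. Of the 45 pairs among the 10 genes, 15 had ratios whose ranges at 6 and 24 h did not overlap, or 33.3%, beside 10.6% of all pairs of the genes tested. The 45 pairs share genes and libraries and are not independent. Each of the 10 genes was more abundant than most genes tested, and the pairs of all genes were not matched for level. Of the 5 genes with an ERSE or ERSE-II in the window shown above, Hspa5 and Herpud1 fell, Calr rose, and Hsp90b1 and Creld2 did not pass.

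**Figure D3:**
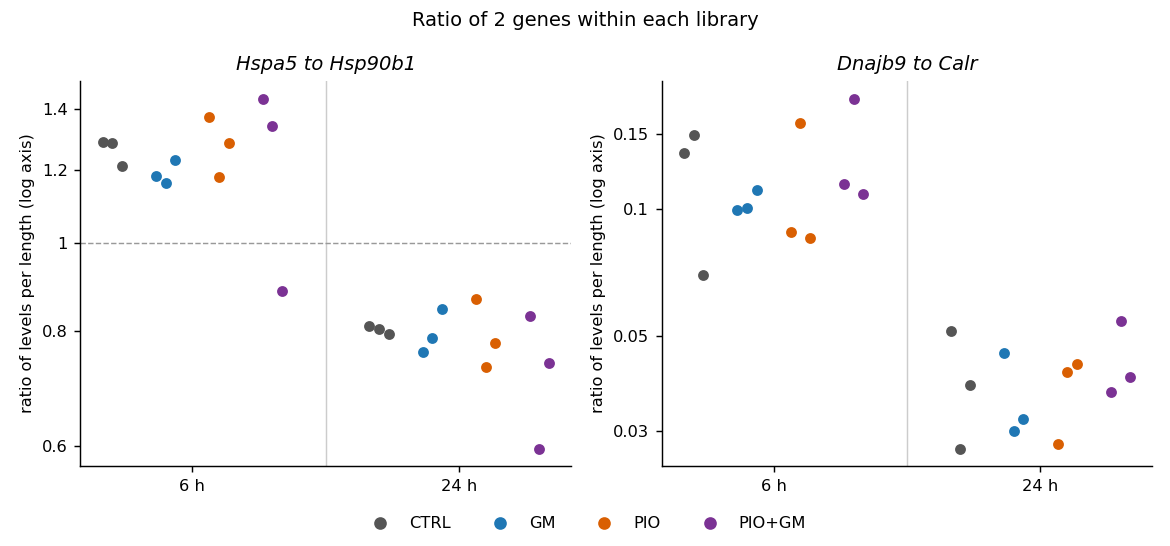
Ratio of the levels per base of Hspa5 to Hsp90b1 (left) and of Dnajb9 to Calr (right) in each library, on log axes, by time and treatment; the dashed line at left marks equal levels. No library at 24 h reaches the lowest ratio at 6 h in either panel, 0.886 and 0.0697.

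No gene of the 10 passed the threshold for either drug at either time. With pioglitazone averaged over the presence of gentamicin (PIO and PIO+GM against CTRL and GM), 16.1% of all genes were called at 6 h and 2.79% at 24 h, and 0 of the 10 at each, with 2 of the 10 at an unadjusted p under 0.05 at 6 h and 1 at 24 h, beside 5481 and 2750 of all 16317 genes. In the direct comparisons edgeR also called 0 of the 10. The share of all genes called was 0.337% for PIO against CTRL at 6 h and 0.153% at 24 h, and 1.32% for PIO+GM against GM at 6 h and 0.11% at 24 h; of the 10 genes, 0 and 1 had an unadjusted p under 0.05 in the first, beside 2479 and 1621 of all 16317 genes, and 1 and 0 in the second, beside 4087 and 1219. DESeq2's Wald test, run as an alternative, called Hspa5 with pioglitazone averaged at 6 h and none of the 10 in the other drug comparisons, and edgeR's likelihood ratio test called none. The fit on the 12 libraries of a time point called Xbp1 (-0.29) and Sdf2l1 (-0.32) downward with pioglitazone averaged at 24 h.

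At 6 h the genes of the 10 with an unadjusted p under 0.05 for pioglitazone were the chaperones Hspa5 and Hsp90b1. Hspa5 had 1007, 812 and 1071 CPM in CTRL, 884, 580 and 1101 CPM in GM, 1025, 1291 and 1219 CPM in PIO and 928, 1383 and 1069 CPM in PIO+GM. The libraries with and without pioglitazone overlapped, the highest 3 being with it and the lowest 3 without it. The averaged log2 fold change was 0.34 (SE 0.13, edgeR adjusted p = 0.080) for Hspa5 and 0.35 (SE 0.16, edgeR adjusted p = 0.12) for Hsp90b1. Both passed when PIO+GM 6 h replicate 1 was left out (0.40 and 0.46 with edgeR adjusted p = 0.032 and 0.022), and Hspa5 also without GM 6 h replicate 3 (0.45). Over all fits that left out 1 library, the values ran from 0.23 to 0.45 for Hspa5 (edgeR adjusted p up to 0.23) and from 0.25 to 0.46 for Hsp90b1 (up to 0.31), and the lowest values, 0.23 and 0.25, were those without GM 6 h replicate 2. In PIO+GM against GM alone, Hsp90b1 had 0.43, with 0.64 (edgeR adjusted p = 0.037) without PIO+GM 6 h replicate 1, 0.22 (0.57) without GM 6 h replicate 2 and 0.23 (0.65) without PIO+GM 6 h replicate 3. For pioglitazone averaged at 6 h, Hspa5 and Hsp90b1 had 0.06 and 0.10 without the 8 libraries numbered 2. In that averaged comparison the log2 fold changes of all genes had a Spearman correlation of -0.56 with GC content, where Hspa5 and Hsp90b1 had a GC content of 45.6% and 42.1%, and after the GC trend was removed their values were 0.21 and 0.11.

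At 24 h Xbp1 was the lowest-p gene with pioglitazone. It had 152, 105 and 129 CPM in CTRL, 121, 114 and 122 CPM in GM, 101, 105 and 102 CPM in PIO and 99.9, 103 and 98.0 CPM in PIO+GM. The 6 libraries with pioglitazone were all below the 6 without it, narrowly for CTRL 24 h replicate 2, which held for 2.98% of all genes and for 1 of the 10. The log2 fold change was -0.29 (SE 0.09, edgeR adjusted p = 0.099), and it passed without CTRL 24 h replicate 2, with -0.35 (edgeR adjusted p = 0.042), while without CTRL 24 h replicate 1 it had -0.22 (edgeR adjusted p = 0.27). PIO against CTRL gave negative values for all 10 genes at 24 h, with a median log2 fold change of -0.27 beside 51.4% negative values among all genes. The libraries of PIO lay wholly below those of CTRL for Xbp1, Pdia4, Sdf2l1 and Calr, 4 of the 10 genes, beside 10.6% of all genes. Without CTRL 24 h replicate 1, the library with the high levels, the median was -0.04 and 9 of 10 values were negative. In PIO+GM against GM at 24 h, the libraries of PIO+GM lay wholly below those of GM for Xbp1, Sdf2l1 and Creld2, beside 8.57% of all genes, and wholly above for Hyou1, beside 9.84%.

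With gentamicin none of the 10 genes passed. Averaged over pioglitazone, 0.0123% of all genes were called at 6 h and 0.313% at 24 h, and edgeR called 0 of the 10 at each time, 0 also at an unadjusted p under 0.05, which 346 and 461 of all 16317 genes reached. The values of GM against CTRL were negative for all 10 genes at both times, with medians of -0.17 at 6 h and -0.16 at 24 h beside 50.3% and 50.8% negative values among all genes, and were called for 0 of the 10 (0% of all genes at 6 h, 0.0123% at 24 h). Leaving out CTRL 6 h replicate 3 left 4 negative values at 6 h and a median of 0.02, and leaving out GM 6 h replicate 2 left 5. Leaving out CTRL 24 h replicate 1 left 6 negative values at 24 h and a median of -0.0038. PIO+GM against PIO called 0 of the 10 (0% of all genes at 6 h, 0.0735% at 24 h). The 95% intervals of the averaged gentamicin effects ran from -0.88 to 0.34 over the 10 genes at 6 h and from -0.64 to 0.47 at 24 h. The intervals differed between genes, the widest being that of Sdf2l1, and that of Calr at 6 h ran from -0.42 to 0.0023. Interactions called 0 of the 10 as well, both of pioglitazone with gentamicin (0% of all genes at 6 h and 0% at 24 h) and of either drug with time (0.00613% for pioglitazone, 0% for gentamicin); the interaction of pioglitazone with time for Hspa5 was the only one of these at an unadjusted p under 0.05, which 1653 of all 16317 genes reached there.

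**Figure D4:**
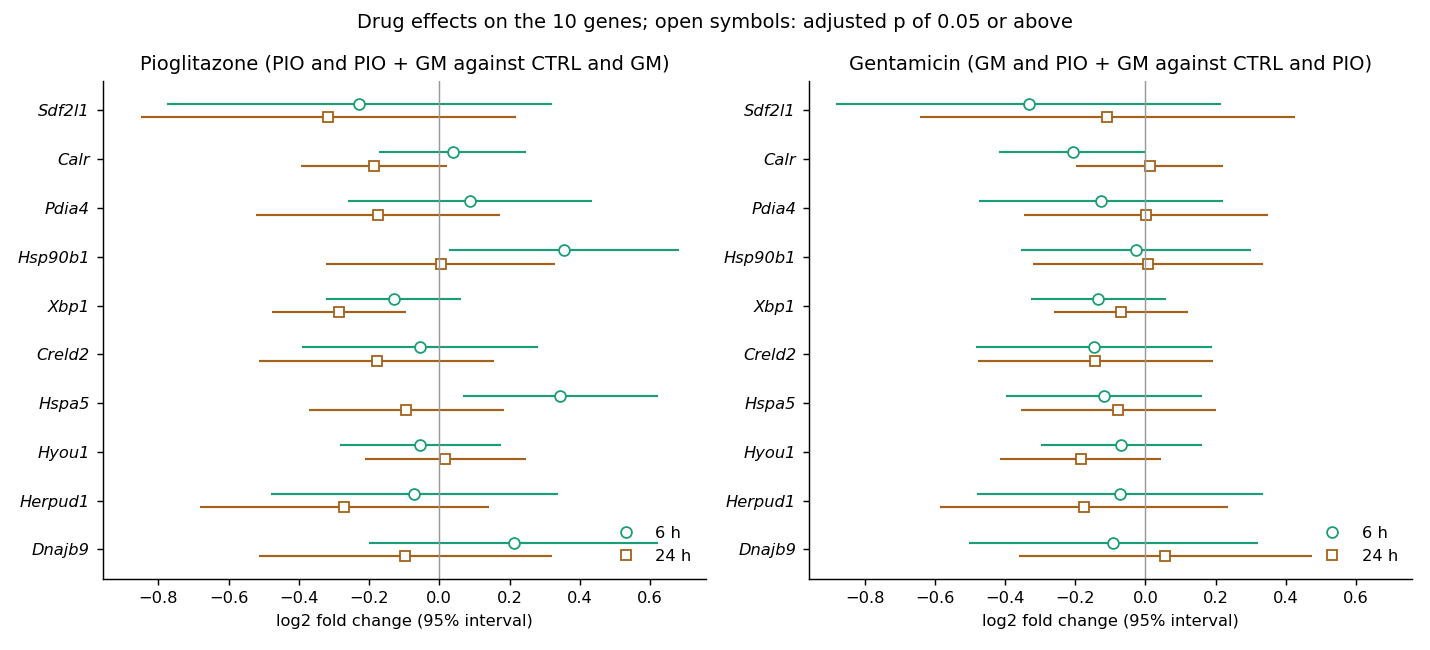
Log2 fold change with its 95% interval for the effect of pioglitazone (left) and of gentamicin (right) on the 10 genes, each averaged over the other drug, at 6 h (circles) and 24 h (squares). All symbols are open, since no adjusted p was under 0.05; Hspa5 at 6 h (0.34) and Xbp1 at 24 h (-0.29) with pioglitazone lie farthest from 0 relative to their errors.

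Other genes of ER folding and of the UPR were counted from lists made for this purpose, to be read beside the 31.9% of all genes called upward and 30.7% called downward between 6 and 24 h. Between 6 and 24 h the other ER chaperones and folding enzymes moved in both directions, with 12 of 24 called upward and 5 downward. Among those upward were the BiP exchange factor Sil1 (0.79), the cyclophilin Ppib (0.59), Fkbp14 (0.62), Erp29 (0.47) and Creld1 (0.97). The HSP70-like Hspa13 (-0.78) was among those downward. In ER-associated degradation 3 of 16 were called upward, with Os9 (0.54), a lectin that selects misfolded glycoproteins, and Edem2 (0.76). Called downward were 6, among them the ubiquitin-conjugating enzymes Ube2j1 (-0.42) and Ube2g2 (-0.45), and Edem3 (-0.37). Of 14 genes of the translocon and signal peptidase 1 was called upward, Ssr2 (0.14), and 5 downward, among them Spcs3 (-0.50), Ssr1 (-0.28), Sec11a (-0.23), Ssr3 (-0.22) and Spcs1 (-0.25). The sensors and their transcription factors had 2 of 10 called upward, the protease Mbtps1 (0.65), which cuts ATF6, and Eif2ak3 (0.24), which encodes PERK, and 6 downward, including Ern1 (-0.62), which encodes IRE1, Atf6 (-0.51), Creb3 (-0.27) and Creb3l1 (-1.24).

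Genes of the list for the arm downstream of PERK fell nearly throughout. Of the 10 genes of this list 9 were called downward and 0 upward, with a median log2 fold change of -1.50. PERK activity was not measured, and its part in this fall was not tested. The log2 fold change was -3.51 (SE 0.13) for the asparagine synthetase Asns, -3.17 (SE 0.36) for Chac1, an enzyme of glutathione breakdown, -2.46 (SE 0.25) for the pseudokinase Trib3 and -2.01 (SE 0.08) for the serine synthesis enzyme Psat1. For the transcription factors Ddit3 (CHOP) and Atf4 it was -1.54 (SE 0.14) and -1.47 (SE 0.13). The oxidase Ero1a did not pass, with -0.12. The falls of Asns, Chac1, Trib3, Psat1, Ddit3 and Atf4 were each larger than that of Dnajb9, the largest among the 10 chaperone and UPR genes. The difference was not tested. Heat shock genes of the cytosol, listed with the mitochondrial chaperonins Hspd1 and Hspe1, were called downward in 10 of 10, with a median of -0.92 and, for Hspd1, Hsph1, Hsp90aa1, Hspe1, Hspa8 and Hspb1, values of -1.34, -1.29, -1.30, -0.94, -0.64 and -0.97. The summed level of the PERK list was 1354 to 1941 CPM at 6 h and 452 to 871 CPM at 24 h, without overlap.

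**Figure D5:**
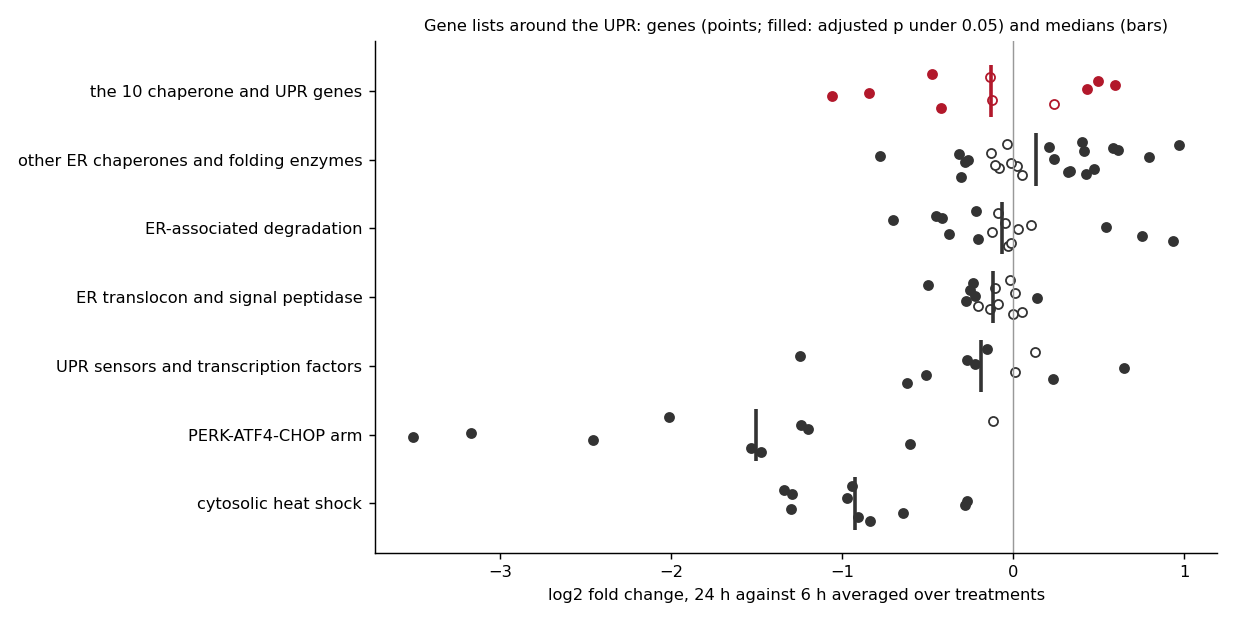
Log2 fold change from 6 to 24 h, averaged over treatments, of each gene in 7 lists (points, filled where the adjusted p is under 0.05) with the list's median (bar). The 10 genes and the other ER chaperones spread to both sides of 0, while the PERK-ATF4-CHOP arm and the heat shock genes lie below it, with medians of -1.50 and -0.92.

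With pioglitazone at 6 h, 16.1% of all genes were called, 1510 of 16317 upward and 1115 downward. The log2 fold changes of all genes had a Spearman correlation of -0.56 with GC content there, and the values below keep this trend. The heat shock list had 3 of 10 called upward, Hsph1 (0.37), Hsp90aa1 (0.62) and Dnajb1 (0.38), and 0 downward. The other ER chaperones had 3 upward, Ero1b (0.61), Sdf2 (0.37) and Uggt1 (0.22), and 1 downward, the collagen chaperone Serpinh1 (-0.57). Edem3 (0.43) and Herpud2 (0.26) were called upward in ER-associated degradation, and Spcs3 (0.41) and Ssr1 (0.21) in the translocon list. The PERK arm and the sensors had 0 called. At 24 h, 0 genes of these 6 lists were called with pioglitazone, and 0 with gentamicin at either time.

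Markers of cell types were counted in the same way, beside the 62.6% of all genes called with time. Macrophage markers had 7 of 10 called upward and 0 downward, with summed levels of 55.1 to 139 CPM at 6 h and 74.8 to 234 CPM at 24 h. Supporting cell markers had 5 of 10 upward and 0 downward (2695 to 7203 CPM, then 4017 to 7010 CPM), and hair cell markers 4 of 12 upward and 1 downward (216 to 492 CPM, then 176 to 486 CPM). Schwann cell and neuron markers had 1 of 10 upward and 6 downward (423 to 2414 CPM, then 559 to 1505 CPM), and fibroblast markers 3 of 8 upward and 1 downward (3793 to 6508 CPM, then 4110 to 8686 CPM). With pioglitazone at 6 h (1115 of 16317 genes called downward), 4 of 12 hair cell, 1 of 10 Schwann cell and neuron and 3 of 8 fibroblast markers were called downward, and at 24 h (327 of 16317) 4 of 8 fibroblast markers. No marker gene was at 0 in every library of a time point. The part of these shifts in the levels of the 10 genes, and of the deviations of single libraries described above, was not tested.

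The spread between replicate libraries was itself uneven. The SD within groups (log2 scale) was larger at 6 h than at 24 h for 9 of the 10 genes, most for Sdf2l1, with 0.69 at 6 h and 0.14 at 24 h, and the exception was Dnajb9, with 0.35 and 0.38. At 6 h the libraries numbered 2 lay below their group mean in 4 of 4 groups for Sdf2l1, Creld2 and Hyou1, by 0.62, 0.37 and 0.24 on average, and above it in 4 of 4 for Herpud1, by 0.20. At 24 h they lay below it in 4 of 4 groups for Hspa5, Pdia4, Calr, Creld2 and Hyou1, by 0.08, 0.14, 0.10, 0.06 and 0.03 on average. The libraries numbered 3 lay above it in 4 of 4 groups at 6 h for Hsp90b1, Pdia4 and Sdf2l1, by 0.25, 0.27 and 0.63, and those numbered 1 for Hyou1 at both times, by 0.13 and 0.08, and for Calr at 24 h, by 0.08. Sdf2l1 had 6.88, 7.08, 9.85 and 9.15 CPM in the libraries numbered 2 of CTRL, GM, PIO and PIO+GM, and 22.6, 22.4, 23.6 and 12.4 CPM in those numbered 3. After group means were removed, correlations over the 12 libraries at 6 h ran from -0.45 (Hsp90b1 and Herpud1) to 0.94 over the 45 pairs of genes. The highest at 6 h were 0.94 between Sdf2l1 and Creld2 and 0.88 between Sdf2l1 and Calr. Next came 0.84 between Hspa5 and Hsp90b1 and 0.83 between Pdia4 and Calr. At 24 h these 4 pairs had 0.65, 0.58, 0.65 and 0.93, and Hsp90b1 and Herpud1 had 0.90. The points share library, depth and replicate number, and the values are descriptions.

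The genes whose levels followed the mean of the standardized levels of the 10 most closely over the 24 libraries were Manf (Pearson correlation 0.86), Ovol1 (0.70), Spcs2 (0.69), Ugdh (0.68), Dnajc3 (0.68), Bag2 (0.68), Sap30 (0.66), Ppme1 (0.66), Map2k1 (0.66) and Kdelr2 (0.64). Manf and Dnajc3 belong to the list of other ER chaperones and were called downward with time, with log2 fold changes of -0.32 and -0.26. Spcs2 belongs to the signal peptidase, and Kdelr2 encodes a receptor that returns lumenal proteins to the ER.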

How the data were processed

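Per the labels and the study's methods, the authors mapped reads of TruSeq stranded libraries with STAR to the mouse genome (build mm10) and counted, with the qCount function of QuasR, reads that start in any RefSeq exon of a gene. Whether strand was used, and how multi-mapping reads were handled, is not given in the sources used here. The deposited counts are raw, and the other deposited column is the gene length in bases, used for RPKM. Of 24454 Entrez identifiers, 24374 had a symbol in RefSeq. The tests used edgeR 4.0.16 under R 4.3.3, with filterByExpr, TMM factors, group means of all 24 libraries and the quasi-likelihood test, adjusted over 16317 genes at 0.05. Standard errors came from the F statistic, and log2 CPM used a prior count of 2. DESeq2 1.42.0 served as an alternative, and Python 3.11 for motifs and figures. Genes of other lists were named when called, at most 6 per list by smallest p, and the 10 most correlated genes were named. A called gene that this rule would name is not reported here. Exceptions, chosen after their values were seen, are the pairs of genes whose ratios are printed, Manf, Dnajc3 and Ero1a. The 10 genes and all lists were chosen with earlier results of these data known. The 95% intervals of log2 fold changes use the standard errors from the F statistic and include the spread between libraries of a group. No column of per-sample values was left out.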

Additional observations from a re-analysis of the deposited data

How the results depend on the processing

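All 7 genes called between 6 and 24 h on average were called in each of the 24 fits that left out 1 library. Without the libraries numbered 1, chosen after the data were seen, 1 gene was called upward. Of the drug comparisons, DESeq2's Wald test called 1 gene upward with pioglitazone at 6 h, and with pioglitazone at 24 h the fit on the 12 libraries of that time called 2 downward and the GC trend removed together with the replicate block 1. Leaving out 1 library gave 0 to 1 gene upward for PIO+GM against GM at 6 h, 0 to 2 upward for pioglitazone at 6 h and 0 to 1 downward for pioglitazone at 24 h. Between 6 and 24 h in CTRL (1 upward and 1 downward), downward counts were 3 with DESeq2 size factors, 3 with the Wald test, 2 with the likelihood ratio test, 2 with at least 10 counts in every library and 3 after GC removal; the 6 libraries alone gave 0 upward. In GM (1 and 2), upward counts were 2 with the Wald test, the likelihood ratio test, at least 10 counts in every library, the 6 libraries alone and GC removal. In PIO+GM (1 and 4), the 6 libraries alone gave 2 upward. Without libraries numbered 1, 2 or 3, upward counts were 0, 0 and 3 in CTRL, 0 in GM (numbered 1) and 0 and 2 in PIO+GM (1, 3); downward counts were 2 and 0 in CTRL (1, 3), 0, 1 and 0 in GM, 1 and 2 in PIO (1, 3) and 1, 2 and 2 in PIO+GM. Leaving out 1 library gave 0 to 3 upward and 0 to 3 downward in CTRL and, downward, 1 to 2 in GM, 2 to 3 in PIO and 0 to 4 in PIO+GM. The cause of these differences was not tested; fits with fewer libraries have fewer degrees of freedom.

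The labels do not say what a replicate number marks, so a block for it was kept as an alternative. Correlations of deviations from group means averaged 0.113 at 6 h for same-numbered pairs (9 of 18 over 0.1), beside -0.055 for other pairs. At 24 h they averaged 0.380 (15 of 18 over 0.1), beside -0.182. Fitted within a time, the block moved the common coefficient of variation from 0.2251 to 0.1773, a hint from the data that the numbers carry shared variation. The main tests had no block, so such variation stays in their error. With the replicate number as a block, 2 genes were called upward and 2 downward in CTRL between 6 and 24 h, adding Sdf2l1 (0.86) and Hyou1 (-0.37), 2 upward in GM, adding Pdia4 (0.66), and 2 upward in PIO+GM, adding Sdf2l1 (0.90). With the GC trend removed as well, CTRL had 3 upward and 3 downward and GM 2 upward. The block alone changed no other count of these genes by over 1.5 times. In all, 929 counts stayed within 1.5 times and 59 did not; 3085 log2 fold changes kept their side of the threshold, 73 gained a call and 62 lost it. No called value changed sign; values that were not called moved more, some to the other sign. A prior count of 0.5 in place of 2 moved log2 levels of the 10 genes by at most 0.024. The lowest total limits the rarest gene, Sdf2l1, most.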
